A study of Mus musculus with 2 samples.

Results

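Neurotrophins and the GDNF family are secreted survival and plasticity factors. Bdnf (brain-derived neurotrophic factor) acts mainly through the receptor tyrosine kinase TrkB, encoded by Ntrk2, and Ntf3 (neurotrophin-3) through TrkC, encoded by Ntrk3, while Ngfr encodes the low-affinity p75 receptor shared by the neurotrophins. Gdnf (glial cell line-derived neurotrophic factor) binds the membrane-anchored co-receptor encoded by Gfra1, which presents it to the receptor tyrosine kinase Ret; Gfra2 encodes the co-receptor that prefers neurturin. Midbrain dopaminergic neurons are a classical target of Gdnf and Bdnf. The rows of these 9 genes, taken by symbol from the 32285 genes counted, are described here by cell class: Bdnf, Ntf3, Gdnf, Ntrk2, Ntrk3, Ngfr, Ret, Gfra1 and Gfra2.

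The ventral tegmental area (VTA) of adult mice was profiled by droplet single-nucleus RNA sequencing with 10x Genomics 3′ chemistry in 2 libraries. In the CCI library, neuropathic pain had been induced by chronic constriction injury, in which the left sciatic nerve is ligated; on the right side of the same mice the nerve was exposed and left unligated. The WT library came from wild-type mice. How many mice were pooled, which hemisphere was taken and the time since surgery are not given in the labels, and each group is 1 library, so no test between groups was possible.

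Classes were rebuilt from marker genes, so each name below stands for nuclei that are like the named type. The CCI library gave 12825 nuclei with a median of 3461 UMIs (unique molecular identifiers, each counting 1 captured transcript), and the WT library gave 12189 nuclei with a median of 975. Levels are the UMIs of a gene per 1000000 UMIs of a class (CPM), and each interval is an exact 95% interval that covers counting error only, not differences between mice or libraries. The class called dopaminergic held 5.54% of CCI neurons (368 of 6644) and 14.2% of WT neurons (844 of 5964), and its Slc6a3 (dopamine transporter) level was 650 CPM in CCI and 652 CPM in WT. Different subclusters made it up: subcluster 1 held 138 CCI and 844 WT nuclei, and subcluster 18 held 230 CCI nuclei and none from WT. Summed transcripts of 7 myelin genes and of 13 mitochondrially encoded genes were lower in CCI in the 8 classes compared, for example 224 against 971 CPM of myelin transcripts in dopaminergic neurons, and 37 of the barcodes kept occurred in both libraries.

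The gene positions in mm10 place the members on 8 chromosomes. Bdnf (ENSMUSG00000048482) lies at chr2:109674700-109727007 on the plus strand, Ntf3 (ENSMUSG00000049107) at chr6:126101412-126166910 on the minus strand and Gdnf (ENSMUSG00000022144) at chr15:7810846-7837575 on the plus strand. Ntrk2 (ENSMUSG00000055254) lies at chr13:58806569-59133970 on the plus strand, Ntrk3 (ENSMUSG00000059146) at chr7:78175959-78738012 on the minus strand and Ngfr (ENSMUSG00000000120) at chr11:95568818-95587735 on the minus strand. Ret (ENSMUSG00000030110) lies at chr6:118151745-118197718 on the minus strand, Gfra1 (ENSMUSG00000025089) at chr19:58235604-58455909 on the minus strand and Gfra2 (ENSMUSG00000022103) at chr14:70890120-70979838 on the plus strand. Exons of Bdnf share 896 bases with the antisense gene Gm45346, and exons of Gfra1 share 416 bases with the antisense gene Gm16277. Whether counting used strand is not given, so reads from either pair may not have been told apart; over all barcodes the counts were 30 UMIs in CCI and 6 in WT for Gm45346, and 130 in CCI and 44 in WT for Gm16277.

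Dopaminergic neurons held most of the Ntf3 transcripts. It reached 99.3 CPM (89.3 to 110; 359 UMIs) in CCI dopaminergic neurons and 78.2 CPM (66.3 to 91.6; 154 UMIs) in WT dopaminergic neurons. Among the other 7 classes that had 50 nuclei or more in CCI and in WT it was between 0.578 and 4.47 CPM in CCI and between 2.08 and 10.6 CPM in WT. Dopaminergic neurons thus held 74.6% (70.5 to 78.5) of its UMIs in CCI and 70.0% (63.5 to 76.0) in WT, and in neither library did their interval overlap that of the class next in order. Against all other nuclei of the same library the level was 47.0-fold higher in CCI and 16.6-fold higher in WT. Outside the dopaminergic class, 1 neuron subcluster stood near it: subcluster 16, led by Glis3, Crym and the vesicular glutamate transporter gene Slc17a7, had 76.7 CPM (52.8 to 108) in CCI and 73.2 CPM (44.7 to 113) in WT. No other subcluster of at least 20 nuclei exceeded 11.3 CPM in CCI or 16.0 CPM in WT.

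The windows of 250 bases before the RefSeq starts of Ntf3 and Gfra1 (GRCm38.p6) are shown because these genes, with Ret, had their highest class level in dopaminergic neurons; the RefSeq promoter table used gave 14 windows for 6 of the 9 members. Capitals mark matches to CCAAT or CACGTG on either strand, so ATTGG is CCAAT read on the other strand. The positions are chr6:126166745-126166994 and chr6:126164961-126165210 for the Ntf3 starts and chr19:58455399-58455648 for Gfra1, all on the minus strand.
Ntf3 start 1: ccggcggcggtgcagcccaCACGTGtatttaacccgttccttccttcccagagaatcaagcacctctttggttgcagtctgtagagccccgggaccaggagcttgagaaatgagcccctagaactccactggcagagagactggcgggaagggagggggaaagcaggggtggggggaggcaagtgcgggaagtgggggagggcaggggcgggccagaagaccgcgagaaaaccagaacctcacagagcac
Ntf3 start 2: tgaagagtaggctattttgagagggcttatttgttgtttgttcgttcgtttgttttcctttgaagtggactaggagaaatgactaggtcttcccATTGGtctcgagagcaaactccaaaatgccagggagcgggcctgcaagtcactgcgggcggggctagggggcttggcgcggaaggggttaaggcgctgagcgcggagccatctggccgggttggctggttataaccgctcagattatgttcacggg
Gfra1: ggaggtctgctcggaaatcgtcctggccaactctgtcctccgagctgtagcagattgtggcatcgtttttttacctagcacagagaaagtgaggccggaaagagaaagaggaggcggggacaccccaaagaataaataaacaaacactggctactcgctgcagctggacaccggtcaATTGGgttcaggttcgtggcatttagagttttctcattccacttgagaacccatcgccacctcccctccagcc
Ntf3 start 1 holds CACGTG, which 6.02% of 32851 mouse windows of this length hold, and Ntf3 start 2 and Gfra1 each hold CCAAT, as 33.8% of windows do. The letters AAAGGTCA, the half-site of the Nr4a2 family of receptors (1.34% of windows), and TGACGTCA, the cyclic AMP response element (1.55% of windows), were searched on both strands and do not occur in these windows. These are matches of letters in a window, not measured binding.

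Bdnf transcripts were mainly neuronal and spread over several neuron classes. Neurons held 91.4% (90.0 to 92.7) of its UMIs in CCI and 85.6% (82.2 to 88.5) in WT. Their share of all UMIs was 77.1% in CCI and 68.3% in WT. Dopaminergic neurons had 47.3 CPM (40.5 to 55.0; 171 UMIs) in CCI and 42.2 CPM (33.6 to 52.3; 83 UMIs) in WT, which overlap. Neurons richer in Slc17a transcripts, that is in the vesicular glutamate transporters that mark glutamatergic cells, had 47.7 CPM (44.6 to 50.9) in CCI and 45.8 CPM (37.5 to 55.2) in WT; in both libraries their interval overlapped that of dopaminergic neurons. The subcluster with the highest level was the same in both libraries: subcluster 12, led by Iqgap2, Adcyap1 (the neuropeptide PACAP) and Lmx1a (a midbrain floor-plate factor), had 81.1 CPM (69.3 to 94.3; 168 UMIs) in CCI and 129 CPM (77.9 to 202; 19 UMIs) in WT, with intervals that overlap those of the subcluster next in order. The remaining neurons, neither clearly GABAergic nor rich in Slc17a transcripts, had 34.9 CPM (31.4 to 38.7) in CCI and 52.0 CPM (44.4 to 60.5) in WT, which do not overlap; the log2 difference of CCI over WT, -0.58 (-0.84 to -0.30), was just short of 1.5-fold. Neurons richer in GABAergic markers were lower, at 13.5 CPM (11.7 to 15.5) in CCI and 22.3 CPM (17.5 to 28.0) in WT. Oligodendrocytes had 10.2 CPM in CCI and 10.9 CPM in WT. Astrocytes had 12.2 CPM (8.93 to 16.3) in CCI and 26.6 CPM (17.5 to 38.7) in WT. On 13 UMIs in CCI and 6 in WT, microglia had 19.4 CPM (10.3 to 33.1) and 27.1 CPM (9.96 to 59.1). In both libraries the intervals of astrocytes and microglia overlap that of neurons richer in GABAergic markers. The 7 annotated Bdnf starts cannot be separated by 3′ counts.

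Gdnf itself was close to the limit of detection, with 60 UMIs in CCI and 8 UMIs in WT over all kept nuclei. Its UMIs were mostly in neurons, 54 of 60 in CCI and 7 of 8 in WT. Neurons also held most of all UMIs, 77.1% in CCI and 68.3% in WT. Whether the neuronal share of Gdnf was above that share was not tested. Of the CCI UMIs, 31 were in neurons richer in Slc17a transcripts, at 1.68 CPM (1.14 to 2.39). In CCI, 25 of the 60 UMIs came from subcluster 3, led by Synpo2, Lef1 and Prkcd, at 5.07 CPM (3.28 to 7.49). The 80 WT nuclei of that subcluster had none. The interval of CCI over WT there runs from -2.06 on the log2 scale with no upper end. It includes 0, so these few nuclei do not show a lower level in WT. Astrocytes, a known source of Gdnf in injured brain, had no Gdnf UMI in either library, where the limit of 3 counts set for a count of 0 is 0.796 CPM in CCI and 2.96 CPM in WT; the upper ends of the exact intervals are 0.978 CPM in CCI and 3.64 CPM in WT. Dopaminergic neurons had 4 UMIs in CCI and none in WT. Among classes of at least 50 nuclei, oligodendrocyte precursors had the highest CCI level, 3.22 CPM (0.876 to 8.23; 4 UMIs), and none in WT. This CCI interval overlaps those of subcluster 3 and of neurons richer in Slc17a transcripts.

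**Figure D1:**
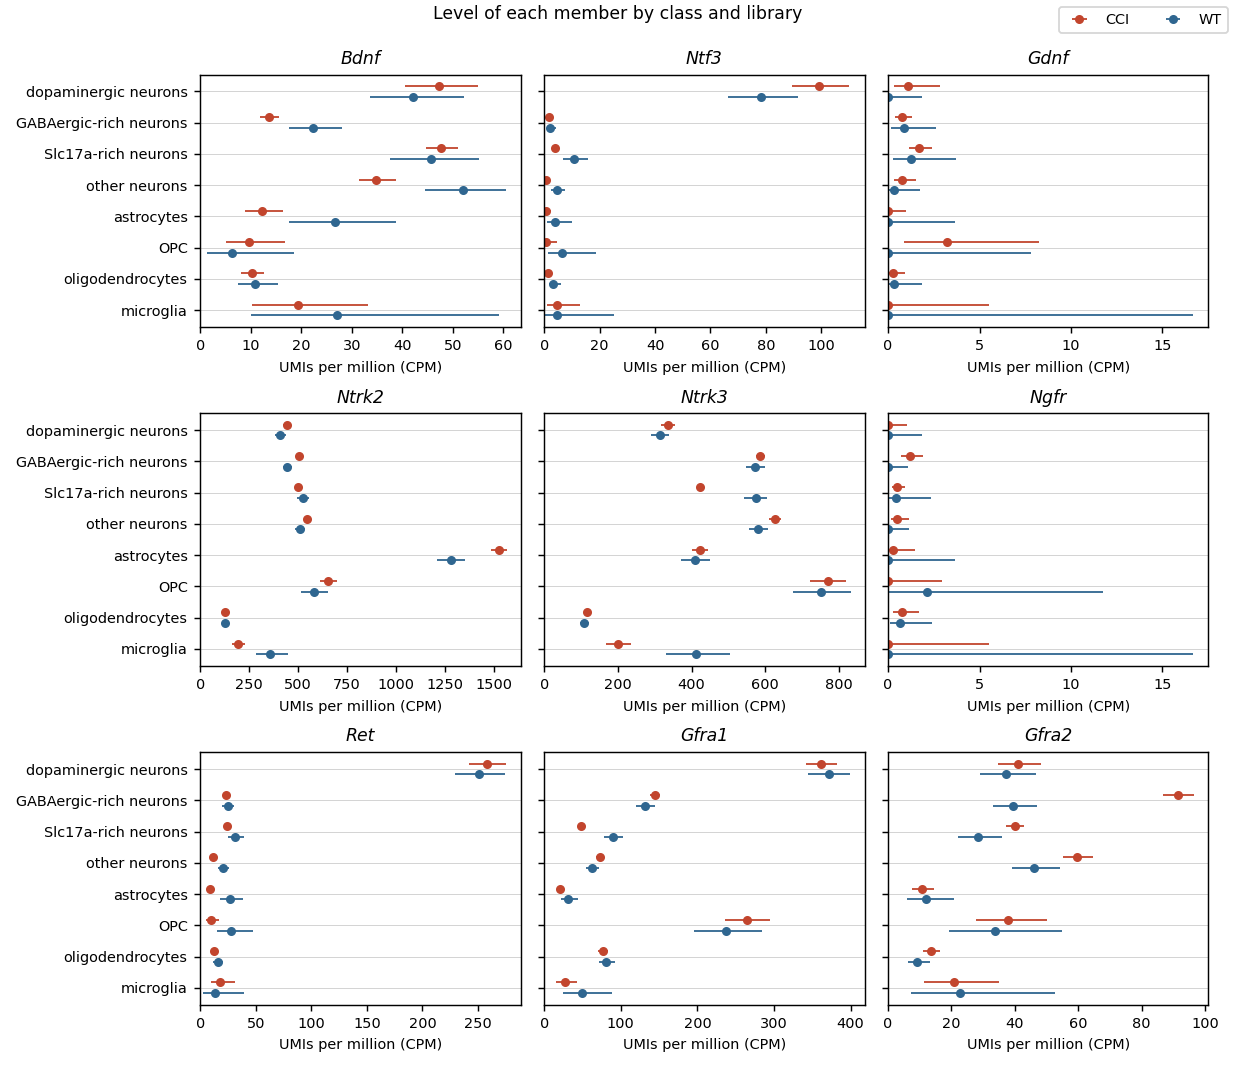
Level of each of the 9 genes (horizontal axis of each panel, CPM, linear and on its own scale) in the 8 classes that had 50 nuclei or more in CCI and in WT; points are the class level in CCI (red) and WT (blue), lines the exact 95% Poisson intervals. Ret, Gfra1 and Ntf3 peak in dopaminergic neurons (Ret at 258 CPM in CCI and 251 CPM in WT) and Ntrk2 in astrocytes; OPC stands for oligodendrocyte precursors.

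On the receiving side, Ntrk2 was detected in every class and was highest in astrocytes. Astrocytes had 1524 CPM (1484 to 1563; 5744 UMIs) in CCI and 1279 CPM (1210 to 1351; 1297 UMIs) in WT, and the 2 astrocyte clusters led the order in both libraries. Oligodendrocyte precursors came next with 654 CPM (609 to 700) in CCI and 579 CPM (513 to 652) in WT. Dopaminergic neurons had 443 CPM (422 to 465) in CCI and 408 CPM (380 to 437) in WT, below the other neuron classes in both libraries, although in WT their interval overlapped that of neurons richer in GABAergic markers. Oligodendrocytes had the lowest level, 125 CPM in each library. A 3′ count does not separate the full-length kinase receptor from the truncated TrkB form that astrocytes are known to make.

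Ntrk3 had another order. The few fibroblasts had the highest level, 1149 CPM (971 to 1349; 54 nuclei) in CCI and 1102 CPM (720 to 1614; 26 UMIs in 28 nuclei) in WT, where the interval overlaps that of oligodendrocyte precursors. Oligodendrocyte precursors had 769 CPM (721 to 820) in CCI and 750 CPM (674 to 833) in WT, and the level was comparatively low in dopaminergic neurons. Dopaminergic neurons had 336 CPM (318 to 356) in CCI and 313 CPM (289 to 339) in WT, and no neuron class was lower in either library. The highest subcluster was number 24, whose leading genes include Pax3 and Pax7, at 1780 CPM (1680 to 1884) in CCI; 109 of its nuclei were from CCI and 3 from WT. Subcluster 16, the non-dopaminergic one with Ntf3, was also high in Ntrk3, at 956 CPM (866 to 1053) in CCI and 999 CPM (884 to 1124) in WT.

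Ngfr was nearly absent from these counts, with 40 UMIs in CCI and 4 in WT. No dopaminergic nucleus had an Ngfr UMI in either library, which allows a share of nuclei with an Ngfr UMI of up to 0.815% in CCI and 0.355% in WT; it does not limit the share of nuclei that express the gene. Of the CCI UMIs, 18 were in neurons richer in GABAergic markers.

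Ret marked the dopaminergic class in both libraries. It had 258 CPM (242 to 275; 932 UMIs) in CCI dopaminergic neurons and 251 CPM (229 to 274; 494 UMIs) in WT dopaminergic neurons, which overlap. The other 7 classes lay between 8.75 and 24.1 CPM in CCI and between 13.6 and 31.4 CPM in WT. Dopaminergic neurons were 14.0-fold above all other nuclei in CCI, a log2 difference of 3.81 (3.68 to 3.93), and 11.0-fold above them in WT, a log2 difference of 3.46 (3.26 to 3.67). They held 46.6% (44.4 to 48.9) of the Ret UMIs in CCI and 60.8% (57.3 to 64.1) in WT, beside their smaller share of CCI neurons. Ret, Gfra1, Bdnf and Ngfr were among the genes that formed the neuron subclusters, so these contrasts are descriptions; with all 9 members left out of the clustering genes the Ret difference was 3.79 in CCI and 3.46 in WT.

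A Ret UMI was found in 84.0% (79.8 to 87.6) of CCI dopaminergic nuclei, with a median of 9171 UMIs per nucleus, and in 41.0% (37.7 to 44.4) of WT dopaminergic nuclei, with a median of 2122.5. Oligodendrocytes, which are not known to use Ret, gave 2.38% in CCI (median 1918.5 UMIs) and 1.22% in WT (median 715.0 UMIs). After every nucleus was thinned to 1000 UMIs, the dopaminergic shares were 21.5% (17.4 to 26.0) in CCI and 21.9% (19.0 to 25.0) in WT, and the oligodendrocyte shares 1.34% in CCI and 1.08% in WT. The libraries therefore differed in the unthinned share and not measurably in the thinned one. All 368 CCI dopaminergic nuclei and 757 of the 844 WT ones were deep enough to be thinned. Of oligodendrocytes, 3589 of 3704 in CCI but only 557 of 3861 in WT were, so their WT share covers the deeper nuclei.

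Ret was not confined to dopaminergic neurons. Subcluster 20, a group of neurons led by the GABA-synthesis gene Gad2, Slc26a7 and Ebf2, had 137 CPM (109 to 169; 85 UMIs) in CCI and 168 CPM (115 to 237; 32 UMIs) in WT. The neurons led by Gulp1 and Ebf1 in subcluster 23 had 72.7 CPM (47.9 to 106) in CCI and 89.5 CPM (46.2 to 156) in WT. For each UMI of Slc6a3, a transcript specific to dopaminergic cells, dopaminergic neurons had 0.396 Ret UMIs in CCI and 0.385 in WT. Neurons richer in GABAergic markers had 2.60 in CCI and 0.976 in WT, and neurons richer in Slc17a transcripts 3.71 in CCI and 1.90 in WT, above the dopaminergic ratio in both. Astrocytes had 0.541 in CCI and 0.458 in WT, closer to the dopaminergic ratio; whether free RNA supplied their Ret UMIs was not tested.

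Gfra1, the co-receptor of Ret for Gdnf, was also highest in dopaminergic neurons but was shared with more classes. Its level there was 362 CPM (342 to 382; 1307 UMIs) in CCI and 371 CPM (345 to 399; 731 UMIs) in WT, which overlap. This was 4.30-fold above all other nuclei in CCI, a log2 difference of 2.11 (2.02 to 2.19), and 3.98-fold above them in WT, a log2 difference of 1.99 (1.86 to 2.12). With dopaminergic nuclei picked by their transcripts the log2 difference over other nuclei was 1.07 in CCI and 1.45 in WT for Gfra1, and 2.49 in CCI and 2.80 in WT for Ret. Dopaminergic neurons held 21.2% (20.2 to 22.3) of its UMIs in CCI and 35.9% (33.8 to 38.0) in WT. Several neuron subclusters had much Gfra1 and little Ret: subcluster 8, led by Pax5 and Gata3, had 359 CPM (322 to 399) in CCI and 328 CPM (284 to 376) in WT, and subcluster 16 had 291 CPM (242 to 346) in CCI and 351 CPM (284 to 429) in WT. Subcluster 21, led by Six3, Sst (somatostatin) and Pvalb (parvalbumin) and made of CCI nuclei only, had 394 CPM (355 to 436). Subclusters 1 and 18 were the ones high in both genes.

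**Figure D2:**
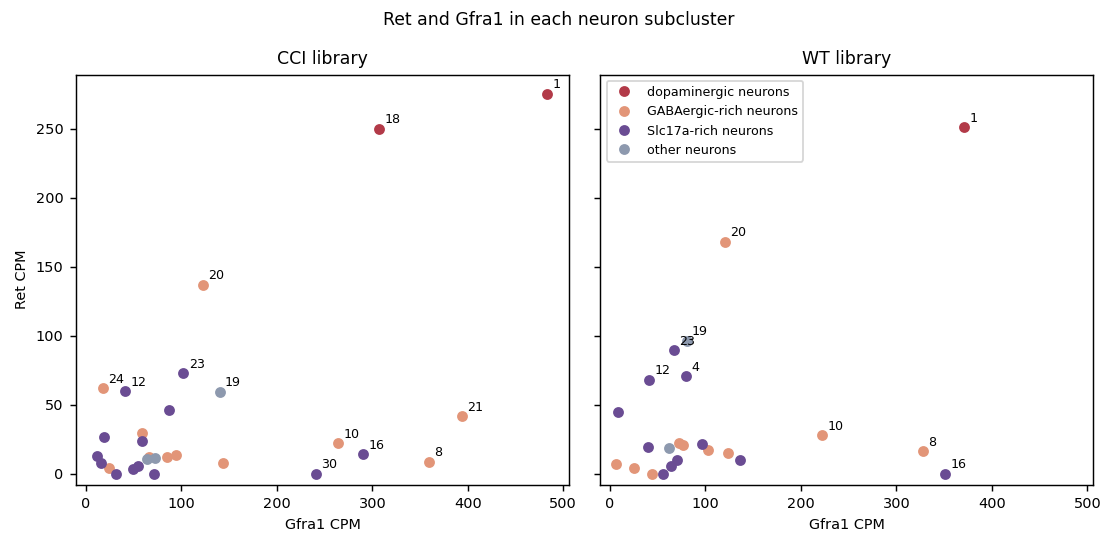
Ret CPM (vertical axis) against Gfra1 CPM (horizontal axis) in each neuron subcluster of at least 20 nuclei, for the CCI library (left) and the WT library (right); each point is 1 subcluster, coloured by class and numbered where either gene is high. Dopaminergic subclusters 1 and 18 stand at the upper right, subcluster 20 between, and subclusters 8, 10 and 16 along the lower edge, where Gfra1 occurs with little Ret.

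Both transcripts were detected in the same nucleus in 209 of 368 CCI dopaminergic nuclei, or 56.8% (51.6 to 61.9), and in 152 of 844 WT nuclei, or 18.0% (15.5 to 20.8). At 1000 UMIs per nucleus the shares were 7.61% (5.12 to 10.8) in CCI and 6.34% (4.71 to 8.32) in WT, with overlapping intervals. Among nuclei with a Ret UMI, Gfra1 was seen in 67.6% in CCI and 43.9% in WT; among dopaminergic nuclei with no Ret UMI it was seen in 61.0% in CCI and 37.3% in WT. In both libraries Gfra1 was therefore seen in most or many of the nuclei that gave no Ret UMI as well.

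Outside neurons, Gfra1 followed the oligodendrocyte lineage. Oligodendrocyte precursors had 265 CPM (237 to 295; 329 UMIs) in CCI and 237 CPM (195 to 285; 112 UMIs) in WT. Committed precursors had 80.3 CPM (32.3 to 165; 7 UMIs in 17 nuclei) in CCI and 231 CPM (171 to 306; 49 UMIs in 182 nuclei) in WT. Cluster 12, oligodendrocytes led by Mobp and Opalin, had 163 CPM (121 to 215) in CCI and 167 CPM (130 to 211) in WT, and cluster 7, led by Apod and Anln, 25.2 CPM (18.9 to 32.8) in CCI and 15.6 CPM (3.22 to 45.7) in WT. Leaving aside the 17 committed precursors in CCI, the level was thus higher in precursors than in each mature cluster, although in WT the intervals of precursors and cluster 12 overlap. Ret was at 9.65 CPM (4.98 to 16.9; 12 UMIs) in CCI oligodendrocyte precursors and 27.5 CPM (14.6 to 47.0; 13 UMIs) in WT, so Gfra1 was there with little Ret. Astrocytes had 21.2 CPM of Gfra1 in CCI and 31.6 CPM in WT.

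**Figure D3:**
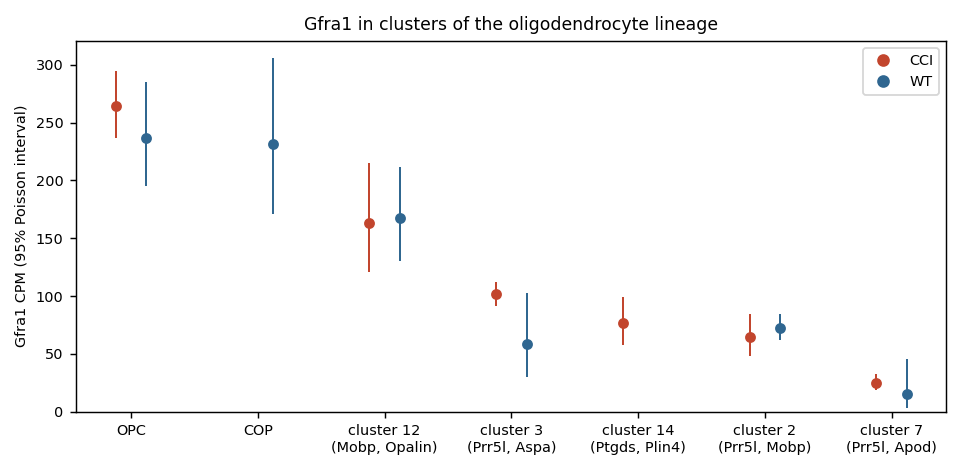
Gfra1 CPM (vertical axis, from 0) in clusters of the oligodendrocyte lineage (horizontal axis), CCI in red and WT in blue, with exact 95% Poisson intervals; a point is missing where a library had fewer than 20 nuclei of the cluster. The points of oligodendrocyte precursors (OPC) and WT committed precursors (COP) stand above those of every mature cluster, of which cluster 12 is the highest at 163 CPM in CCI and 167 CPM in WT.

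Neurons held 92.9% (92.0 to 93.8) of the Gfra2 UMIs in CCI and 85.8% (82.4 to 88.7) in WT. Their share of all UMIs was 77.1% in CCI and 68.3% in WT. Gfra2 was not confined to neurons. Oligodendrocyte precursors had 37.8 CPM (27.8 to 50.3) in CCI and 33.8 CPM (19.3 to 54.9) in WT, intervals that overlap those of dopaminergic neurons. Neurons richer in GABAergic markers had 91.6 CPM (86.8 to 96.5; 1366 UMIs) in CCI and 39.6 CPM (33.1 to 46.9; 133 UMIs) in WT. They ranked first in CCI only. The remaining neurons had 59.7 CPM (55.1 to 64.6) in CCI and 46.1 CPM (39.0 to 54.1) in WT. In WT this was the highest class level, with an interval that overlaps that of neurons richer in GABAergic markers. Neurons richer in Slc17a transcripts had 40.0 CPM in CCI and 28.4 CPM in WT. Dopaminergic neurons had 40.9 CPM (34.6 to 48.1) in CCI and 37.1 CPM (29.1 to 46.6) in WT, which overlap. The highest CCI subcluster was number 25, led by Meis2, Sst and Egfr, at 275 CPM (232 to 322), and the highest in WT was number 15, led by Calcr and Sim1, at 187 CPM (89.7 to 344; 10 UMIs) in WT beside 141 CPM (123 to 162; 208 UMIs) in CCI.

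Within the dopaminergic class, Ntf3, Ntrk3 and Gfra1 differed between groups of nuclei in both libraries, with intervals excluding 0. Dopaminergic nuclei were divided by detected transcripts into those with Sox6, a marker of substantia nigra-like cells, and those with Calb1, Otx2 or Slc17a6, markers of VTA-like cells; nuclei with both or neither were set aside. Ntrk3 was lower in Sox6 nuclei in both libraries: 233 CPM in Sox6 nuclei and 493 CPM in the other group in CCI, and 253 CPM in Sox6 nuclei and 451 CPM in the other group in WT. The log2 difference of Sox6 nuclei over the others was -1.08 (-1.29 to -0.87) in CCI and -0.83 (-1.17 to -0.49) in WT. Ntf3 was likewise lower, at 86.4 CPM in Sox6 nuclei and 115 CPM in the others in CCI, a difference of -0.41 (-0.80 to -0.03), and at 45.1 CPM in Sox6 nuclei and 131 CPM in the others in WT, a difference of -1.53 (-2.23 to -0.82). Gfra1 was at 329 CPM in Sox6 nuclei and 427 CPM in the others in CCI, and at 321 CPM in Sox6 nuclei and 430 CPM in the others in WT. Its difference was -0.38 (-0.57 to -0.18) in CCI and -0.42 (-0.75 to -0.09) in WT. Ret was at 242 CPM in Sox6 nuclei and 261 CPM in the others in CCI, and at 232 CPM in Sox6 nuclei and 270 CPM in the others in WT. Its intervals included 0 in both libraries, with differences of -0.11 (-0.35 to 0.13) in CCI and -0.22 (-0.63 to 0.20) in WT. They overlap those of Gfra1, and whether Ret differed less than Gfra1 was not tested. A nucleus without a UMI of a dividing gene may still express it, and the CCI groups held 144 Sox6 nuclei and 100 others, the WT groups 363 and 98.

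**Figure D4:**
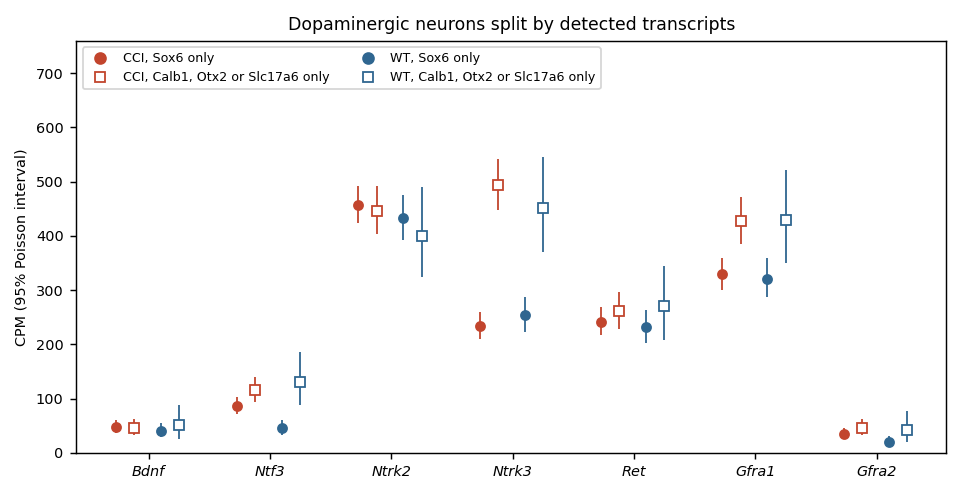
CPM (vertical axis, from 0, with exact 95% Poisson intervals) of 7 members in dopaminergic nuclei with a Sox6 UMI only (filled circles) and with a Calb1, Otx2 or Slc17a6 UMI only (open squares), CCI in red and WT in blue. Ntrk3, Ntf3 and Gfra1 are lower in the Sox6 nuclei of both libraries, Ntrk3 at 233 CPM against 493 CPM in CCI.

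Ntrk3, Gfra1 and Ntf3 also differed between the dopaminergic subclusters of the CCI library. Gfra1 and Ret were among the genes that formed these subclusters, so their differences here are descriptions. Ntrk3 and Ntf3 were not among those genes. Ntrk3 was at 250 CPM in subcluster 18 and 527 CPM in subcluster 1, a log2 difference of -1.07 (-1.24 to -0.91). Gfra1 was at 307 CPM in subcluster 18 and 483 CPM in subcluster 1, a difference of -0.65 (-0.81 to -0.49). Ntf3 was higher in subcluster 18, at 109 CPM, than in subcluster 1, at 77.3 CPM, with a difference of 0.50 (0.15 to 0.86). Ret differed by -0.14 (-0.34 to 0.06), an interval that includes 0.

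Between the libraries, the dopaminergic class showed no member past 1.5-fold with an interval excluding 0, among the 7 with at least 20 UMIs, while 8.25% of the 12631 genes measured in this class were past it. The median log2 difference of CCI over WT was 0.12 over the 7 members and 0.03 over all genes measured. Ret differed by 0.04 (-0.12 to 0.20) and Gfra1 by -0.04 (-0.17 to 0.09). When dopaminergic nuclei were picked by their transcripts in place of clusters, the differences were -0.83 for Ret and -0.65 for Gfra1; this choice took 620 CCI nuclei, of which 220 were dopaminergic by cluster, and 637 WT nuclei, of which 525 were. Ntf3 was higher in CCI by 0.34 (0.07 to 0.63), but by -0.02 when only subcluster 1, which both libraries share, was used and by -0.76 when nuclei were picked by transcripts. Within subcluster 1, Gfra1 was at 483 CPM (443 to 525) in CCI and 371 CPM (345 to 399) in WT. This is a difference of 0.38 (0.22 to 0.54). In the same subcluster Ntrk3 differed by 0.75 (0.59 to 0.92), with 527 CPM in CCI and 313 CPM in WT, and Ret by 0.14 (-0.07 to 0.34). Subcluster 1 sets 138 of the 368 CCI dopaminergic nuclei against all 844 WT ones, so the cells compared may be unlike. In Sox6 nuclei as divided above, Gfra1 was at 329 CPM in CCI and 321 CPM in WT. Ntrk3 there was at 233 CPM in CCI and 253 CPM in WT. In the Calb1, Otx2 or Slc17a6 nuclei, Gfra1 was at 427 CPM in CCI and 430 CPM in WT. Ntrk3 in them was at 493 CPM in CCI and 451 CPM in WT.

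Gfra2 in neurons richer in GABAergic markers was the only member higher in CCI past 1.5-fold in the 8 classes, with a log2 difference of 1.21 (0.95 to 1.48). In this class 2 of 7 measured members were past the threshold, Gfra2 higher and Bdnf lower, beside 10.3% of all genes measured. In all 7 subclusters of the class that gave a ratio Gfra2 was higher in CCI, by 0.17 to 1.46, with an interval above 0 in 3 of them. These subclusters come from the same 2 libraries and are not replicates. With equal weight for each shared subcluster the difference was 0.84, and at a clustering resolution of 0.5 it was 1.85. Subclusters 24 and 25, at 146 and 275 CPM in CCI, held 109 and 95 CCI nuclei but 3 and 2 WT nuclei, and subcluster 21, at 131 CPM, held none from WT. Bdnf in this class differed by -0.72 (-1.11 to -0.32), and by -1.52 with nuclei picked by transcripts.

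Neurons richer in Slc17a transcripts had 2 of 8 measured members past the threshold, both lower in CCI, beside 11.6% of all genes. Gfra1 was at 48.7 CPM (45.5 to 51.9) in CCI and 89.4 CPM (77.7 to 102) in WT, a difference of -0.88 (-1.10 to -0.65), which was -0.30 with equal weight for shared subclusters. Ntf3 was at 3.85 CPM in CCI and 10.6 CPM in WT, a difference of -1.46 (-2.14 to -0.74), which was 0.012 with equal weight; 66 CCI and 171 WT nuclei were in subcluster 16, the one with Ntf3. The remaining neurons had 2 of 7 members past the threshold, both lower, beside 9.66% of all genes. There Ntf3 rested on 6 UMIs in CCI and 15 in WT, with a difference of -3.01 (-4.66 to -1.56) that was between -3.21 and -0.04 over the alternatives, and Ret was at 11.8 CPM in CCI and 20.4 CPM in WT, a difference of -0.79 (-1.23 to -0.33) that was -0.15 after thinning.

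Over all neurons, 4 of 9 members were past the threshold, beside 11.9% of all genes measured. Ntf3 was at 9.76 CPM in CCI and 18.4 CPM in WT, a difference of -0.92 (-1.16 to -0.67), and Ret at 38.9 CPM in CCI and 65.6 CPM in WT, a difference of -0.76 (-0.88 to -0.63). Both genes are concentrated in dopaminergic neurons, whose share of neurons was lower in CCI. The part of that share in these differences was not tested. With equal weight for each shared subcluster the differences were -0.012 for Ntf3 and -0.27 for Ret. With the shared subclusters pooled they were -2.00 for Ntf3 and -1.28 for Ret. Both choices leave out subcluster 18, and they moved the values in opposite directions. Gfra2 was higher by 0.65 (0.50 to 0.80), and Ngfr, with 32 UMIs in CCI and 1 in WT, was higher by 2.88 (0.30 to 8.23). Bdnf over all neurons was at 34.1 CPM (32.4 to 35.8) in CCI and 39.7 CPM (36.1 to 43.6) in WT, a difference of -0.22 (-0.37 to -0.06) that did not reach 1.5-fold.

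Among glia, astrocytes had 2 of 6 measured members past the threshold, beside 9.64% of all genes. Bdnf was at 12.2 CPM (8.93 to 16.3; 46 UMIs) in CCI astrocytes and 26.6 CPM (17.5 to 38.7; 27 UMIs) in WT astrocytes, a difference of -1.13 (-1.84 to -0.38). Ret was at 8.75 CPM (33 UMIs) in CCI and 26.6 CPM (27 UMIs) in WT, a difference of -1.61 (-2.38 to -0.82), which was -0.17 after thinning and -0.42 with equal weight for the shared clusters. Thinning kept 1473 of 1486 CCI astrocytes but 202 of 1268 WT ones. Slc6a3, which astrocytes are not known to express, was at 16.2 CPM in CCI astrocytes and 58.2 CPM in WT astrocytes, and the summed level of 7 neuron markers at 694 CPM in CCI and 847 CPM in WT; the part of neuronal RNA in the Bdnf and Ret values was not tested. Ntrk2, the main astrocyte member, was higher in CCI by 0.25 (0.17 to 0.34), short of 1.5-fold.

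Oligodendrocyte precursors had 1 of 5 measured members past the threshold, beside 7.2% of all genes. This was Ret, lower in CCI by 1.51 on the log2 scale (interval -2.77 to -0.26) on 12 CCI and 13 WT UMIs, with alternatives between -1.90 and -0.86, and Slc6a3 was at 11.3 CPM there in CCI and 55.0 CPM in WT. Oligodendrocytes had none of 7 past it, beside 10.0% of all genes. Microglia had 2 of 3 past it, beside 18.8% of all genes: Ntrk2 was at 192 CPM (129 UMIs) in CCI and 357 CPM (79 UMIs) in WT, a difference of -0.90 (-1.31 to -0.47), and Ntrk3 at 199 CPM (134 UMIs) in CCI and 412 CPM (91 UMIs) in WT, a difference of -1.04 (-1.44 to -0.64). After thinning, which kept 318 CCI and 50 WT microglia, the differences were -1.95 for Ntrk2 and -1.53 for Ntrk3. Both turned to the other sign, 0.24 for Ntrk2 and 0.18 for Ntrk3, when microglia were picked by their transcripts. This choice took 1266 CCI and 509 WT nuclei, against 373 and 239 by cluster. Of these, 29 in CCI and 46 in WT were dopaminergic by cluster, so the nuclei compared are unlike. The summed neuron markers in microglia were 1800 CPM in CCI and 2429 CPM in WT, and their part in these values was not tested.

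**Figure D5:**
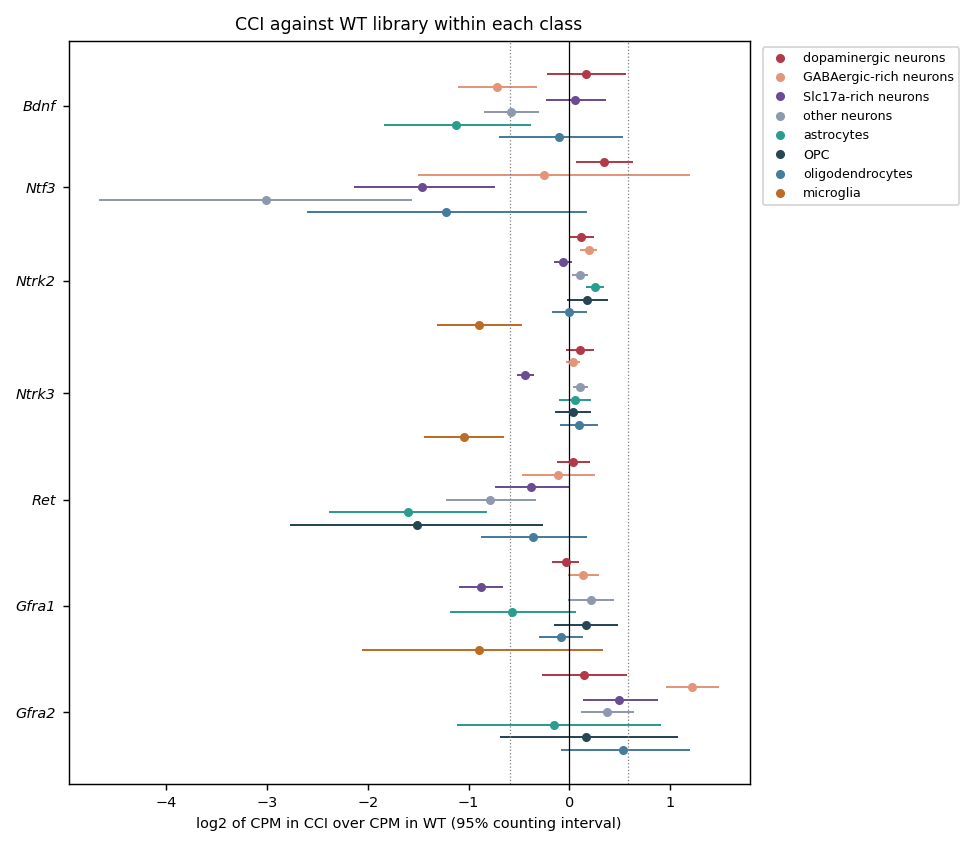
Log2 of the level in CCI over the level in WT (horizontal axis, with 95% counting intervals) for the 7 members measured in more than 1 class (rows), coloured by class; dotted lines mark 1.5-fold. The dopaminergic values lie within the dotted lines, and Gfra2 in GABAergic-rich neurons stands to the right of them at 1.21.

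The other genes of these pathways are given in dopaminergic neurons beside the 8.25% of all genes measured there that were past 1.5-fold. Of 17 further ligands and receptors of both families, 7 were measured and none was past 1.5-fold, with a median log2 difference of 0.07; Ncam1, an alternative Gdnf receptor, was at 995 CPM in CCI and 1010 CPM in WT. Of 9 measured genes of neurotrophin processing, 1 was higher and none lower, with a median of -0.06. The higher one was Pcsk6, a proprotein convertase, at 57.5 CPM in CCI and 34.5 CPM in WT, a difference of 0.74 (0.34 to 1.15). Of 22 measured adaptors of the Trk and Ret receptors, none was higher and 2 lower, with a median of -0.01: the docking protein gene Frs3, at 5.26 CPM (19 UMIs) in CCI and 20.3 CPM (40 UMIs) in WT, and the adaptor gene Gab1, at 51.7 CPM in CCI and 81.8 CPM in WT, a difference of -0.66 (-0.97 to -0.35). Kidins220, a scaffold of the Trk receptors, was at 377 CPM in CCI and 397 CPM in WT. None of 7 measured p75 adaptors was past the threshold, with a median of 0.03. In astrocytes, where 9.64% of all genes measured were past the threshold, the same lists had 0 of 7 past it for the further ligands and receptors, 1 of 9 for processing (higher), 3 of 21 for the Trk and Ret adaptors (2 higher and 1 lower) and 0 of 7 for the p75 adaptors.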

How the data were processed

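Single-nucleus RNA from the VTA was measured in 1 CCI and 1 WT library, grouped by their titles. The authors deposited whole-number UMI counts per gene and barcode, made with Cell Ranger 7.1.0 per the file headers and with build mm10 per the submitters' processing notes, which also name Seurat. The annotation release, the use of intronic reads and the strand setting are not given in the sources used here. The design text names single-nucleus sequencing while the labels' protocol names a tissue dissociation kit, and each barcode is taken as 1 nucleus. Totals were 68376220 UMIs over 13736 barcodes in CCI and 18581333 UMIs over 14114 barcodes in WT.

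The filters asked for 200 genes or more, 500 UMIs or more and a mitochondrially encoded share of 20% or less, which removed none in CCI and 690 in WT. Scrublet, within Scanpy 1.11.5, at an expected rate of 10%, then removed 911 CCI doublets (6.63%) and 1235 WT doublets (9.20%). Counts were log-normalised and scaled within each library. Clusters came from 2000 variable genes, 30 principal components and 20 neighbours (scikit-learn 1.9.0), and Leiden clustering at resolution 1.0 (leidenalg 0.10.2). Neurons were clustered again. None of the 9 members was among the genes that clustered all nuclei. A cluster was named where its markers' mean relative level was at least 0.4 and 1.5 times the next class, with 3 markers detected in 5% of nuclei. Neuron subclusters not named dopaminergic were called richer in GABAergic markers or in Slc17a transcripts where one sum was at least 2 times the other. The rest are the remaining neurons, which include subcluster 9, named for orexin or melanin-concentrating hormone.

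UMIs were summed per class and library and divided by all UMIs of that class. A level has an exact Poisson interval, a share an exact (Clopper-Pearson) binomial interval, and a ratio an exact conditional interval (SciPy 1.17.1), all at 95%. With 1 library per group no test between groups exists. A ratio was described with at least 20 UMIs over both libraries in classes of at least 50 nuclei in both, and called past 1.5-fold when its interval excluded 0; a count of 0 was given a limit of 3 counts. This procedure was tested on simulated data. The members, gene lists, naming thresholds and motifs were chosen with earlier results of these data known. Coordinates came from GENCODE vM21, in which 32158 of 32285 gene IDs were found, and promoter sequence from RefSeq. Alternatives were other filters, no doublet removal, Leiden resolutions of 0.5 and 2.0, thinning to 1000 UMIs, edgeR 4.0.16 TMM and DESeq2 1.42.0 median-of-ratios scaling in R 4.3.3, classes picked by transcripts, and equal weight for shared clusters. No count model was used.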

Additional observations from a re-analysis of the deposited data

Results flagged for a closer look

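The direction of CCI over WT differed between classes for 3 members, in values with intervals on opposite sides of 0; the difference between classes was not tested, and for each member an alternative turned at least 1 of the directions. Ntf3 was higher in CCI dopaminergic neurons by 0.34 on the log2 scale, and had values of -1.46 in neurons richer in Slc17a transcripts and -3.01 in the remaining neurons, the last on 6 CCI and 15 WT UMIs. The dopaminergic value was -0.02 in the shared subcluster and -0.76 with nuclei picked by transcripts, and the value in neurons richer in Slc17a transcripts was 0.012 with equal weight for shared clusters. Ntrk2 had 0.25 in astrocytes, 0.19 in neurons richer in GABAergic markers and 0.11 in the remaining neurons, but -0.90 in microglia; the microglial value was 0.24 with nuclei picked by transcripts, and the value in the remaining neurons -0.02 with the shared clusters pooled. Ntrk3 had 0.11 in the remaining neurons, but -0.44 in neurons richer in Slc17a transcripts and -1.04 in microglia. With nuclei picked by transcripts its values were -0.12 in the remaining neurons and 0.18 in microglia, and with equal weight for shared clusters it was 0.012 in neurons richer in Slc17a transcripts. Picking by transcripts took 1266 CCI and 509 WT nuclei as microglia, against 373 and 239 by cluster.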

How the results depend on the processing

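No paired analysis was possible because each group is 1 library, and for the same reason no replicate could be left out. For CCI over WT, 59 results had 696 alternative values, of which 595 stayed within the counting interval of the reported value and 101 did not. The sign changed in 59 of the 696, in 11 where the reported interval excluded 0 and in 3 where the reported value was also past 1.5-fold. For dopaminergic over other nuclei, 4 results had 44 alternative values, of which 34 stayed within the interval, 10 did not and none changed sign. Leaving the members out of the clustering genes, and pooling only the clusters that both libraries share, were chosen after seeing the data. Bdnf in neurons, CCI over WT, ranged from -0.37 to -0.11 over its alternatives, all below 0.

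With classes picked by transcripts, CCI over WT was -0.83 for Ret and -0.65 for Gfra1 in dopaminergic neurons, dopaminergic over other nuclei was 2.49 in CCI and 2.80 in WT for Ret and 1.07 in CCI and 1.45 in WT for Gfra1, and the microglial values changed sign to 0.24 for Ntrk2 and 0.18 for Ntrk3. The microglia picked in this way were largely other nuclei than those of the microglia cluster, 1266 in CCI beside 373 by cluster. With equal weight for shared clusters, CCI over WT was 0.15 for Ntrk2 in astrocytes, 0.38 for Gfra1 in dopaminergic neurons and 0.012 for Ntf3 in neurons richer in Slc17a transcripts, a change of sign; dopaminergic over other nuclei was 3.67 in CCI and 3.13 in WT for Ret and 2.33 in CCI for Gfra1. Pooling the shared clusters gave 0.38 for Gfra1 in dopaminergic neurons, where the shared subcluster is number 1. Thinning to 1000 UMIs gave -0.14 for Ret in dopaminergic neurons, CCI over WT, and 2.26 for Gfra1 in dopaminergic over other nuclei in CCI, for which TMM scaling gave 2.20 and median-of-ratios scaling 2.21. The cause of these moves was not tested.

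The value of Gfra2 in neurons richer in GABAergic markers ranged from 0.84 to 1.85, above 0 in all 12 alternatives. WT nuclei were shallower: 6291 WT and 315 CCI nuclei had fewer than 1000 UMIs and were left out of every thinned value. Gdnf and Ngfr, with 8 and 4 WT UMIs, allow no ordering of classes in WT.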

Other observations

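Other ligands and co-receptors of these families were rare: over all kept nuclei Ntf5 had 2 UMIs in CCI and 2 in WT, Nrtn (neurturin) 46 in CCI and 9 in WT, Artn (artemin) 15 in CCI and 4 in WT, and Gfra3 10 in CCI and 2 in WT.

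The genes whose level across clusters and subclusters was most like that of a member, by Pearson's r of log CPM over 43 CCI and 35 WT units among 8200 genes, are given as a description; units share their library and depth. Ret was most like Chrnb3, a nicotinic receptor subunit gene (r of 0.79 in CCI and 0.69 in WT). Gfra1 was most like Csmd2 (r of 0.57 in CCI and 0.69 in WT), Bdnf most like Nrn1 (neuritin; r of 0.68 in CCI and 0.63 in WT), and Gfra2 most like Slc39a6 (r of 0.57 in CCI and 0.59 in WT). Ntrk2, the astrocyte receptor, was most like Fmn2 (r of 0.87 in CCI and 0.91 in WT).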
